A study of Mus musculus with 69 samples.

Results

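The genes described here are the receptor chains and kinases that let a T cell respond to interleukins that signal through the common gamma chain. They are 8 receptor genes, Il2ra, Il2rb, Il2rg, Il7r, Il15ra, Il4ra, Il21r and Il9r, and 2 kinase genes, Jak1 and Jak3. They were taken by name, with earlier results of these data known, and all 10 are among the 24309 genes that the 3 deposited count tables share. RNA was sequenced from T cells of mice aged 8 to 16 weeks, sorted from pooled lymph nodes and spleens. WT mice (Stat5a+/+ Stat5b+/+) were set beside AAB mice (Stat5a-/- Stat5b+/-) and BBA mice (Stat5a+/- Stat5b-/-). AAB and BBA mice each lack 3 of the 4 alleles of Stat5a and Stat5b, in every tissue from birth, so that effects arising in the T cells cannot be told apart from effects of the animal's other cells. CD8+ cells were naive (Tnv, CD44 low CD62L high), central memory (Tcm, CD44 high CD62L high) or effector memory (Tem, CD44 high CD62L low), with 2 libraries for each genotype in each of 8 conditions. The conditions were no cytokine (NC) and IL-15 in each of the 3 states, and IL-7 in Tnv and Tcm cells. Naive CD4+ cells were taken without cytokine (3 WT, 2 AAB and 2 BBA libraries) or with IL-7 (3 WT, 2 AAB and 3 BBA). In a further experiment CD8+ cells of AAB mice, activated in vitro, received a retrovirus encoding constitutively active STAT5A (CA-STAT5A) or the empty vector, with 2 libraries each. By the study's methods transduced cells were then cultured with human IL-2, so the empty vector libraries are not a baseline without cytokine. Cultures with IL-7 or IL-15 lasted 12 to 16 hours by the labels and 12 to 18 by the study's methods. The study's methods describe the cells without cytokine as processed directly from the animal while the labels describe a culture, so cytokine and culture cannot be told apart in any comparison of cells with and without cytokine.

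Libraries of CD8+ cells held 5926139 to 25612758 reads on genes, those of CD4+ cells 6705004 to 34118295 and those of transduced cells 11020965 to 16516525. Levels are given in CPM, the reads of a gene scaled to the TMM-normalized total of its library. The deleted genes followed the labels. Stat5a had a median of 82.8 CPM in 16 WT CD8+ libraries, 2.81 in 16 AAB libraries and 41.2 in 16 BBA libraries, and Stat5b had medians of 222, 102 and 69.2 CPM, so reads of Stat5b remained in BBA cells. Sums of Cd8a and Cd8b1 were 1243 to 3300.1 CPM in the CD8+ libraries and 9.88 to 26.9 CPM in the CD4+ libraries. WT Tnv IL-15 replicate 2 stood apart, with 242 CPM of Cd4 where the other library of its group had 6.76. It also had 185 CPM of Foxp3, a gene of regulatory T cells, against 19.7. The transduced libraries went against their CD8+ label, as given with their results. Fewer cells of a type and less RNA per cell cannot be told apart in these libraries, which are of bulk RNA. The study states 2 to 4 biological replicates per group, and p-values measure the spread between these libraries only.

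Receptors of this family share the common gamma chain, encoded by Il2rg, which pairs with a chain particular to each cytokine. The gamma chain carries the kinase JAK3 and the partner chain carries JAK1. When cytokine brings the chains together the kinases phosphorylate STAT proteins, of which STAT5A and STAT5B serve IL-2, IL-7, IL-9 and IL-15, while IL-4 acts mainly through STAT6 and IL-21 mainly through STAT3. Supply of the receptors is itself regulated by cytokines: IL-2 and other STAT5-activating signals are known to raise IL-2Rα, whereas IL-7 and IL-2 are known to lower IL-7Rα.

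STAT5 proteins bind DNA letters of the form TTCNNNGAA. The 250 bases before the RefSeq transcription start (GRCm38.p6) were searched for these letters and for TTCNNNNGAA, the form with a longer spacer that STAT6 also binds. Both motifs read the same on either strand, and they cannot match from the same first base. RefSeq windows were found for 9 of the 10 genes, with 2 windows for Il15ra, and Il2rb had no entry. TTCNNNGAA was present in 1 of the 10 windows, that of Il7r, against 7.02% of all 32851 windows, and TTCNNNNGAA in 0 of the 10, against 5.85% of all windows. The match lay 142 to 134 bases before the RefSeq start of Il7r, at chr15:9529999-9530028 on the minus strand together with its flanks, and is shown because Il7r was the receptor gene with called rises in BBA cells. This window lies inside the span of Il7r in GENCODE M21, whose annotated start is farther upstream. Of its bases 86 are in an exon of that annotation, and the printed site, with 0 exon bases, is in an intron. Windows of Il15ra, Il4ra, Jak1 and Jak3 overlapped exons as well. The window of Il2ra, at chr2:11642542-11642791 on the plus strand, is shown because Il2ra had the largest called falls with the loss of Stat5 alleles. Capitals mark TTCNNNGAA.
Il7r site: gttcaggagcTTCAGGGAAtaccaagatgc
Il2ra window: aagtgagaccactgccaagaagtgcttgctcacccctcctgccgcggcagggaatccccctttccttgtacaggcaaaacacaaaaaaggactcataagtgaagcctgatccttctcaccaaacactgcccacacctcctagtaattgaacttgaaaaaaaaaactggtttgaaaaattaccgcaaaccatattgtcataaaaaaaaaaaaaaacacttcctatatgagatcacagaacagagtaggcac
In GRCm38 Il2ra spans bases 11642807 to 11693193 of chromosome 2, on the plus strand, and Il15ra lies downstream of it at 11705290 to 11734317. Il4ra (125552120 to 125579474) and Il21r (125603429 to 125633570) are likewise neighbors on chromosome 7. Il7r (9505788 to 9530176) and Il2rb (78479256 to 78495271) are on the minus strand of chromosome 15, Il9r on chromosome 11 (32187541 to 32200279), Il2rg on X (101264378 to 101268255), Jak1 on chromosome 4 (101152367 to 101265282) and Jak3 on chromosome 8 (71676296 to 71690575). A match is a string of letters, and these data do not measure binding at it. Its absence from a window of this length says nothing of sites elsewhere in or around the gene.

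Per kilobase of exon, Il2rg was the most abundant of the 10 genes in WT CD8+ cells without cytokine and Il2ra, Il9r and Il15ra the least. In Tnv cells the mean level was 296 CPM per kb for Il2rg, 193 for Jak1 and 144 for Il7r, the specific chain of the IL-7 receptor. Il21r (68.4) and Jak3 (64.6) followed with overlapping libraries, then Il4ra (53.7) and Il2rb (49.97), which also overlapped. Il15ra (2.58), Il2ra (0.74) and Il9r (0.385) were far lower, and the libraries of the last pair overlapped. The other neighbors in this order were apart in both libraries. In Tcm cells Il2rb stood at 199 CPM per kb, overlapping with Jak1 at 214 and above Il7r at 158. In Tem cells Il2rb (189), Jak1 (171) and Il7r (171) did not separate. Naive CD4+ cells kept much of the naive CD8+ order, with Il2rg at 271, Jak1 at 189.97, Il7r at 162 and Il4ra at 80.1 CPM per kb, but Il2rb was at 5.38. CD4+ and CD8+ tables were normalized separately, so the difference in Il2rb between them was not tested.

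**Figure D1:**
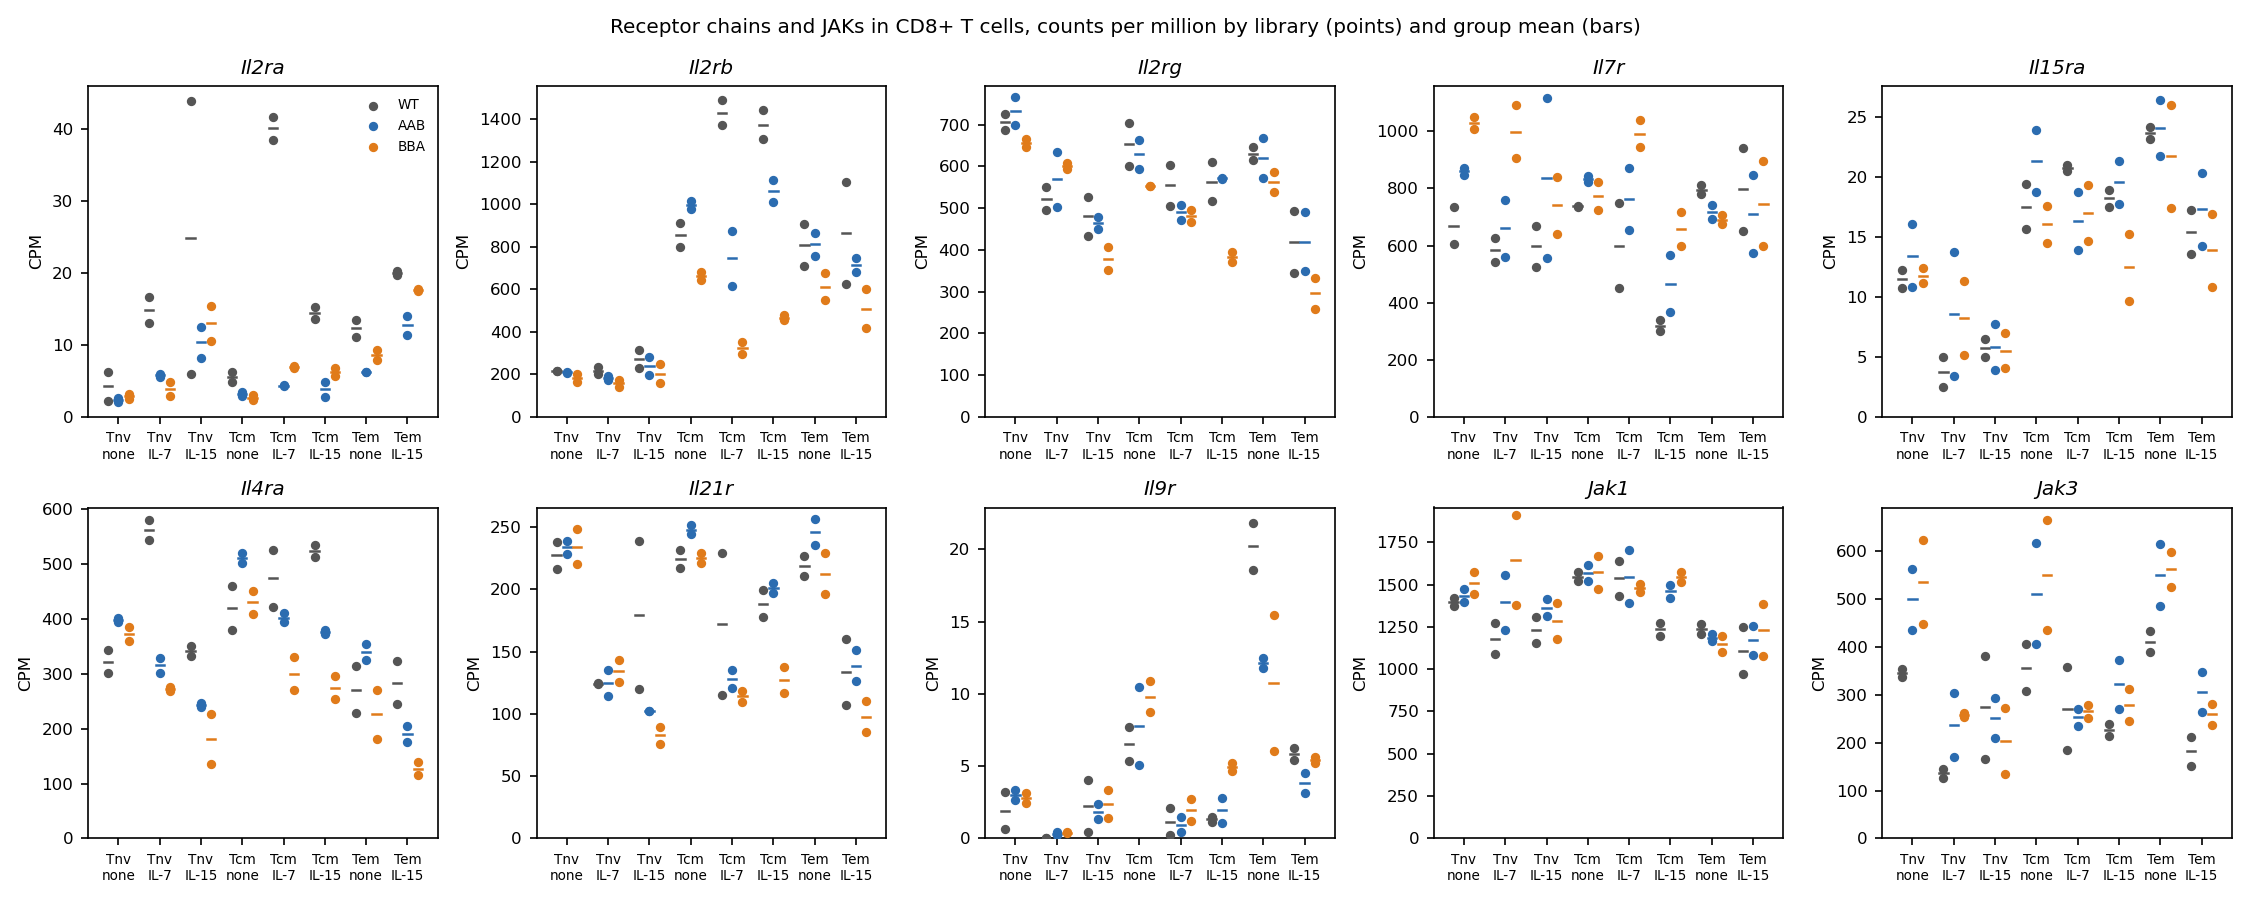
Level of each of the 10 genes in CPM, on axes that start at 0, in the CD8+ libraries. Each point is a library and each bar a group mean, arranged by cell state and cytokine and colored by genotype. Il2ra with IL-7 stands at 38.5 and 41.7 CPM in WT Tcm cells and at 4.31 and 4.36 in AAB, and the WT Tcm and Tem points of Il2rb without cytokine lie at 712 to 912 CPM where those of Tnv lie at 214 and 215.

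Tcm and Tem cells of WT mice had more Il2rb than Tnv cells, and Tem cells more Il15ra. Genes were called where they changed by more than 1.5-fold at a Benjamini-Hochberg adjusted p under 0.05 in edgeR's quasi-likelihood test. Without cytokine, 1 of the 10 genes was called between Tcm and Tnv cells of WT mice, where 2.78% of all genes tested were called, and 3 of the 10 were called between Tem and Tnv cells, against 8.08%. None was called between Tem and Tcm cells, against 1.95%, with 5 genes at an unadjusted p under 0.05 and 2 called by DESeq2, Il4ra and Il9r. Il2rb, the signaling chain of the IL-2 and IL-15 receptors, had 215 and 214 CPM in Tnv cells, 912 and 798 in Tcm and 909 and 712 in Tem. It was higher in Tcm (log2 1.97 ± 0.15, adjusted p = 0.00222) and in Tem cells (log2 1.94 ± 0.15, adjusted p = 0.000757) than in Tnv cells, and these calls held without any 1 library. The 3 comparisons of cell states share libraries.

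Il15ra, which presents and binds IL-15, rose in Tem over Tnv cells (log2 1.07 ± 0.17, adjusted p = 0.0103), from 10.7 and 12.2 to 24.1 and 23.1 CPM. Il9r, the specific chain of the IL-9 receptor, rose from 0.626 and 3.18 to 21.8 and 18.6 CPM (log2 3.37 ± 0.54, adjusted p = 0.0106). The Il15ra call was lost without either Tnv library or without Tem replicate 1 (log2 0.99 to 1.15, adjusted p 0.0615 to 0.101) and the Il9r call without Tem replicate 1 (log2 3.26, adjusted p 0.0544). In these libraries same-numbered replicates deviated together (correlations of 0.54 to 0.70). With 2 libraries per group the deviations mirror each other, so each pair of groups gives 1 value and pairing is not established. With the replicate number as a block, calls were also made in Tcm over Tnv cells for Il15ra (log2 0.59, adjusted p = 0.0177) and Il9r (log2 1.72, adjusted p = 0.00741) and in Tem over Tnv cells for Il2ra (log2 1.66, adjusted p = 0.00131). In Tem over Tcm cells the block added Il2ra (log2 1.25, adjusted p = 0.0123), Il9r (log2 1.68, adjusted p = 0.0015) and Il4ra (log2 -0.59, adjusted p = 0.00137).

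With IL-15, 3 genes were called between Tcm and Tnv cells (all genes, 7.6%), 2 between Tem and Tnv cells (2.92%) and 2 between Tem and Tcm cells (2.03%). Of the 2 WT Tnv libraries here, replicate 2 is the one with reads of Cd4 and Foxp3, so the Tnv levels include other cells' reads. Il2rb was higher than in Tnv cells in Tcm (log2 2.22 ± 0.22, adjusted p = 0.00804) and Tem cells (log2 1.80 ± 0.22, adjusted p = 0.0189), and so was Il15ra (log2 1.55 ± 0.22, adjusted p = 0.0144 in Tcm and log2 1.58 ± 0.22, adjusted p = 0.0249 in Tem). Il7r had 338 and 299 CPM in Tcm cells, 669.9 and 524 in Tnv and 942 and 652 in Tem, and was lower in Tcm than in Tnv (log2 -1.02 ± 0.14, adjusted p = 0.0138) while Tem cells exceeded Tcm cells (log2 1.59 ± 0.14, adjusted p = 0.0165). Il4ra was lower in Tem than in Tcm cells (log2 -0.61 ± 0.09, adjusted p = 0.0385). Each of these 7 calls was lost without either of the Tcm libraries, including those between Tem and Tnv cells, which share the fit's estimate of the spread. Il15ra in Tem over Tnv cells was also lost without Tnv replicate 1 or either Tem library (log2 1.40 to 1.59, adjusted p 0.051 to 0.101), Il4ra without either Tem library (log2 -0.64 to -0.58, adjusted p 0.0739 to 0.269) and Il7r in Tem over Tcm cells without Tem replicate 2 (log2 1.54 to 1.67, adjusted p 0.0792 to 0.211). The others were log2 2.18 to 2.26, adjusted p 0.06 to 0.0946 for Il2rb and log2 1.52 to 1.57, adjusted p 0.0881 to 0.129 for Il15ra in Tcm over Tnv cells, log2 -1.09 to -0.97, adjusted p 0.0911 to 0.122 for Il7r there, and log2 1.80, adjusted p 0.0711 to 0.072 for Il2rb in Tem over Tnv cells.

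Cytokine cultures of WT cells were next set against cells without cytokine. In CD8+ Tnv cells 3 of the 10 genes were called with IL-7, where 18.7% of all genes were called, and 1 with IL-15, against 5.72%. In Tcm cells 2 were called with IL-7 (3.16% of all genes) and 3 with IL-15 (3.74%). No gene was called in Tem cells with IL-15 (1.69%), where 6 had an unadjusted p under 0.05 and DESeq2 called Il2ra, Il9r and Jak3. In naive CD4+ cells 5 genes were called with IL-7 (16.2%). The median log2 change of the genes tested was -0.28 to -0.12 over the 6 cultures, and that of all genes was -0.01 to 0.02. Cultures of one genotype and cell state share the libraries without cytokine. By their reads of Xist and Y-linked genes, the CD8+ libraries without cytokine and with IL-15 were all from females, while with IL-7 all 6 Tnv and 4 of the 6 Tcm libraries were from males, and all CD4+ libraries were from males. In Tnv cells of every genotype, sex therefore cannot be told apart from IL-7, whether set against no cytokine or against IL-15. In Tcm cells both WT libraries with IL-7 were male and AAB and BBA had 1 male library each, so that a term for sex rests on those AAB and BBA libraries. For responses that term was added after the data were seen.

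BBA CD8+ cells differed from WT cells in 4 of 8 conditions, with Il2ra lower in 3 of them, Il2rb and Il4ra lower in 2 each, Il7r higher in 2 and Jak1 higher in 1. All 5 genes were called together only in Tcm cells with IL-15. These were 10 calls in 74 tests, 3 higher and 7 lower in BBA, of which 1 was in cells without cytokine. In Tnv cells 1 gene was called without cytokine, where 2.75% of all genes were called, 2 genes in the IL-7 culture (2.69%) and none in the IL-15 culture (9.31%). In Tcm cells 0 were called without cytokine (0.277%), 2 in the IL-7 culture (3.09%) and 5 in the IL-15 culture (23.5%). In Tem cells 0 were called without cytokine (0.206%) and 0 with IL-15 (1.76%). Over the 4 conditions without a call the genes had an unadjusted p under 0.05 in 10 tests, and DESeq2 made 4 calls, of Il4ra and Il21r in Tnv cells with IL-15 and of Il2rb and Il4ra in Tem cells with IL-15. The median log2 difference of the genes tested ran from -0.28 to 0.22 over the conditions and that of all genes from -0.01 to 0.02.

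Between AAB and WT CD8+ cells 3 calls were made in 74 tests, all lower in AAB. They fell in Tnv cells with IL-7 (1 gene, all genes 0.256%), Tcm cells with IL-7 (1, 0.0594%) and Tcm cells with IL-15 (1, 4.29%). None was called in Tnv cells without cytokine (0.164%) or with IL-15 (0.726%), in Tcm cells without cytokine (0.0395%), or in Tem cells, whether with IL-15 (0.0196%) or not (0.0197%). In those 5 conditions 10 tests had an unadjusted p under 0.05 and DESeq2 made 2 calls. AAB and BBA cells were compared with the same WT libraries. BBA and AAB cells were also set against each other directly, which gave 1 call among the 10 genes, of Il2rb in Tcm cells with IL-15 (5.85% of all genes). The other 7 conditions gave none: Tnv with IL-7 (0.148%), with IL-15 (0.0706%) and without cytokine (0.523%), Tcm without cytokine (0.0395%) and with IL-7 (0.0891%), and Tem without cytokine (0.0197%) and with IL-15 (0.00982%). There 10 tests had an unadjusted p under 0.05 and DESeq2 made 1 call, of Il2rb in Tcm cells with IL-7.

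**Figure D2:**
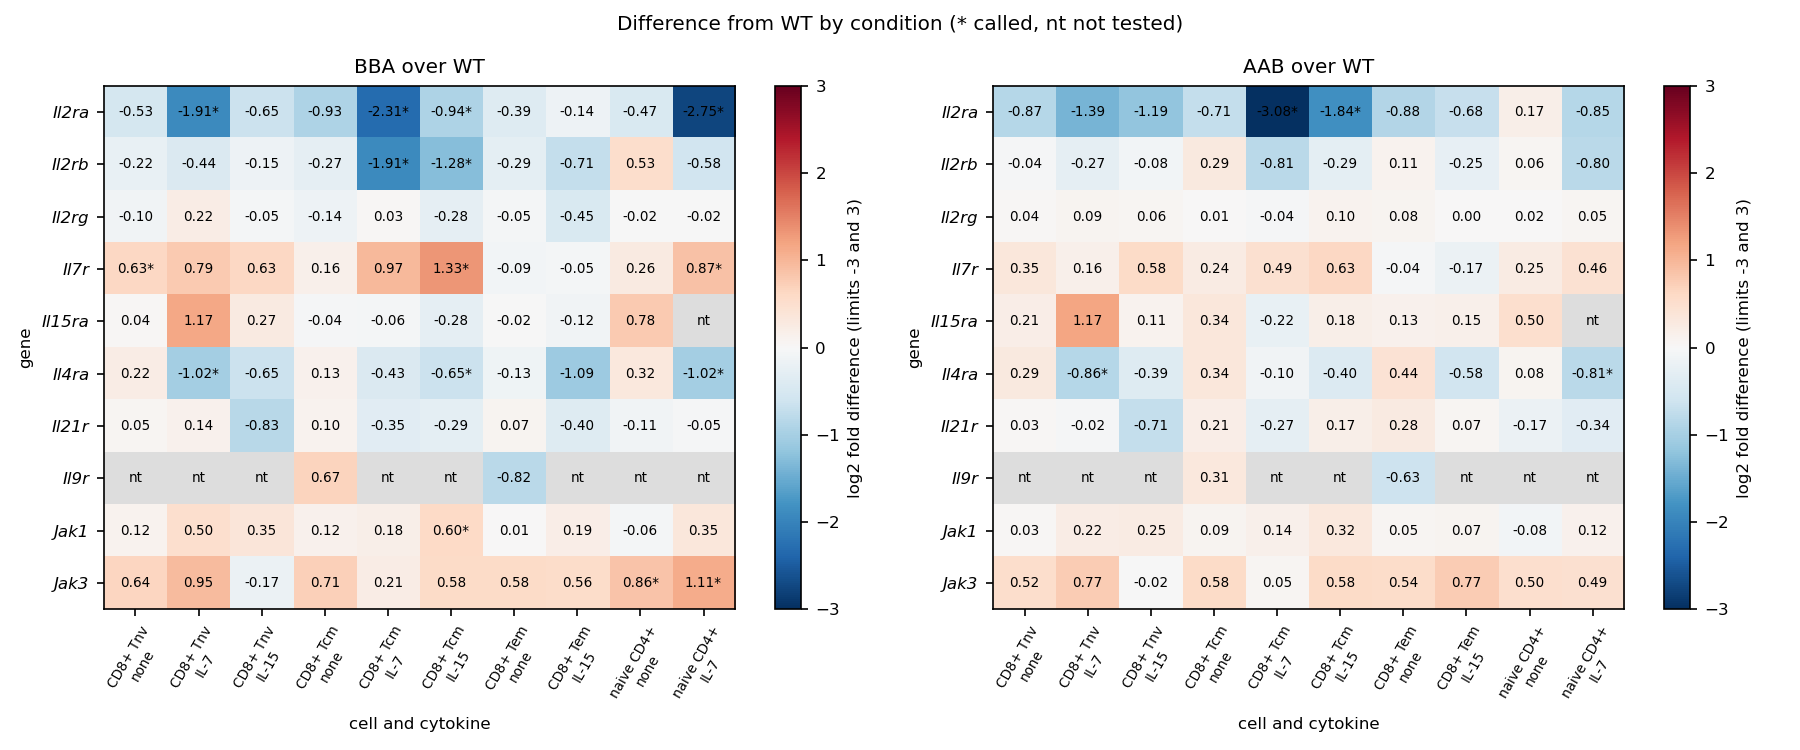
Fitted log2 differences of BBA from WT and of AAB from WT for each of the 10 genes in each condition, with the value written in each cell. Color runs from log2 -3 (blue) to 3 (red), an asterisk marks a call and nt a gene not tested. Il2ra reaches -3.08 in AAB Tcm cells with IL-7 and -2.75 in BBA naive CD4+ cells with IL-7, Il7r is highest at 1.33 in BBA Tcm cells with IL-15, and Il2rg stays between -0.45 and 0.22.

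Whether the response to cytokine itself differed from that of WT cells was tested as an interaction of genotype and cytokine. For BBA, 1 gene was called in Tnv cells with IL-7 (all genes 1.86%), 1 in Tnv with IL-15 (1.48%), 1 in Tcm with IL-7 (1.08%), 2 in Tcm with IL-15 (4.49%), 0 in Tem with IL-15 (0.00954%) and 1 in naive CD4+ cells with IL-7 (1.11%). In Tem cells 3 genes had an unadjusted p under 0.05 and DESeq2 called none. For AAB, the IL-7 response gave 1 call in Tnv cells (0.305%) and 2 in Tcm cells (0.314%). None was called in Tnv cells with IL-15 (0.0286%), Tcm with IL-15 (0%), Tem with IL-15 (0%) or naive CD4+ cells with IL-7 (0.0192%), where 8 tests had an unadjusted p under 0.05 and DESeq2 called Il4ra in Tcm and in CD4+ cells. All 9 called differences were of Il2ra, Il2rb or Il4ra, and all were negative.

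Il2ra encodes IL-2Rα (CD25), which gives the IL-2 receptor its high affinity and is itself raised by STAT5-activating cytokines. In WT Tcm cells it went from 6.19 and 4.80 CPM without cytokine to 38.5 and 41.7 with IL-7 (log2 2.89 ± 0.26, adjusted p = 0.000261) and 15.2 and 13.6 with IL-15 (log2 1.35 ± 0.25, adjusted p = 0.0114). With IL-7 it had 4.36 and 4.31 CPM in AAB and 7.09 and 6.72 in BBA Tcm cells, and with IL-15 2.80 and 4.80 in AAB and 6.81 and 5.60 in BBA. Neither genotype overlapped with WT, and AAB was the lower in both cultures. Il2ra was lower than WT in AAB (log2 -3.08 ± 0.24, adjusted p = 0.0226) and in BBA cells with IL-7 (log2 -2.31 ± 0.23, adjusted p = 0.0127), and in AAB (log2 -1.84 ± 0.28, adjusted p = 0.0152) and BBA cells with IL-15 (log2 -0.94 ± 0.27, adjusted p = 0.0316). The difference between the genotypes did not pass the test with IL-7 (log2 0.76, adjusted p = 0.626) or IL-15 (log2 0.91, adjusted p = 0.0927). The response to IL-7 was smaller in AAB than in WT Tcm cells (log2 -2.38 ± 0.36, adjusted p = 0.0214), whereas the same difference for BBA was not called (log2 -1.39, adjusted p = 0.0913). With IL-15 no response difference of Il2ra was called (log2 -0.02 for BBA and -1.14 for AAB). BBA Tcm cells rose with IL-15 by log2 1.33. Without cytokine, Il2ra had an unadjusted p under 0.05 between BBA and WT Tcm cells and was not called.

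These Tcm calls depended in part on single libraries and, for the genotype differences with IL-7, on whether a term for sex was fitted. The WT response to IL-15 was lost without WT NC replicate 2 or either WT IL-15 library (log2 1.18 to 1.40, adjusted p 0.0617 to 0.104), and the response difference of AAB without any WT NC, AAB NC or AAB IL-7 library (log2 -2.52 to -2.23, adjusted p 0.0558 to 0.106). With IL-7 the BBA call was lost without either BBA library (log2 -2.33 to -2.30, adjusted p 0.142 to 0.174) and the AAB call without any AAB or BBA library (log2 -3.14 to -3.01, adjusted p 0.0909 to 0.167). With IL-15 the BBA call was lost without any WT or BBA library (log2 -1.06 to -0.81, adjusted p 0.0617 to 0.133) and the AAB call without either WT library or AAB replicate 1 (log2 -1.89 to -1.54, adjusted p 0.0591 to 0.0823). With a term for sex the genotype differences with IL-7 kept their size but not their calls (log2 -3.12, adjusted p = 0.217 for AAB and log2 -2.35, adjusted p = 0.0855 for BBA), whereas the WT response to IL-7 (log2 2.96, adjusted p = 0.0091) and the response difference of AAB (log2 -2.41, adjusted p = 0.0485) were still called. In 1 fit over all CD8+ libraries, BBA cells with IL-15 had log2 -0.99 (adjusted p = 0.124).

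In Tnv cells Il2ra had 6.19 and 2.26 CPM in WT cells without cytokine and 13.1 and 16.6 with IL-7, a difference that was not called (log2 1.90, adjusted p = 0.0556). With IL-7 it had 5.57 and 5.94 CPM in AAB and 2.90 and 4.90 in BBA cells, all below WT, and the BBA difference was called (log2 -1.91 ± 0.33, adjusted p = 0.0364) while that of AAB was not (log2 -1.39, adjusted p = 0.216). The BBA call was lost without any of the 4 WT and BBA libraries (log2 -2.31 to -1.59, adjusted p 0.0968 to 0.27). With IL-15 the levels were 5.89 and 43.9 in WT, 12.5 and 8.23 in AAB and 15.5 and 10.5 in BBA cells. The second WT value is from the library with reads of Cd4 and Foxp3, and the WT response to IL-15 (log2 2.62 ± 0.69, adjusted p = 0.0347) was log2 0.53 (adjusted p = 0.694) without it. Leaving out either WT NC library also ended that call. Il2ra rose with IL-15 in Tnv cells of AAB (log2 2.32 ± 0.73, adjusted p = 0.0369) and of BBA (log2 2.50 ± 0.72, adjusted p = 0.0202), and no response difference between genotypes was called.

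In Tem cells Il2ra with IL-15 had 20.2 and 19.7 CPM in WT, 13.99 and 11.4 in AAB and 17.7 and 17.5 in BBA, and no genotype difference was called. Its level in naive CD4+ cells rose with IL-7 from 7.74, 5.66 and 3.97 to 23.1, 59.3 and 38.4 CPM in WT (log2 2.84 ± 0.42, adjusted p = 0.00018). BBA cells with IL-7 had 6.03, 9.09 and 2.74 CPM, below every WT library (log2 -2.75 ± 0.45, adjusted p = 0.00579), and AAB cells 29.7 and 15.6, of which 1 lay within the WT range. The BBA call held without any 1 library. The summed level of 5 regulatory T cell genes (Foxp3, Ikzf2, Ctla4, Tnfrsf18 and Il10) moved with Il2ra in some of these conditions, at 203 to 270.2 CPM in WT and 76.1 to 119.6 in BBA CD4+ cells with IL-7. In Tnv cells with IL-7 it was 201 to 215 in WT, 146 to 152 in AAB and 75.3 to 82.9 in BBA, and in Tcm cells with IL-15 182 to 203, 108 to 115 and 90.9 to 109. In Tcm cells with IL-7, where Il2ra differed the most, this sum overlapped between the genotypes, at 84.1 to 161 CPM in WT, 119.6 to 126 in AAB and 75.2 to 111 in BBA. Foxp3 alone was at 16.1 to 21.8 CPM in WT and 14.8 to 15.4 in BBA Tnv cells with IL-7. In CD4+ cells with IL-7 it was at 20.2 to 31.0 CPM in WT and 17.3 to 18.4 in BBA, and Il10 of the same list was at 0 in WT. The part of such cells in the Il2ra differences was not tested.

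Il2rb rose with cytokine in WT Tcm cells and fell with IL-7 in BBA Tcm cells. WT cells had 912 and 798 CPM without cytokine, 1489.6 and 1373 in IL-7 and 1445 and 1306 in IL-15. BBA cells had 679 and 645 CPM without cytokine, 297 and 354 in IL-7 and 479 and 455 in IL-15. AAB cells had 978 and 1015 without, 616 and 875 in IL-7 and 1012 and 1116 in IL-15. In both cultures all BBA libraries were thus below all AAB libraries, which were below all WT libraries. The WT rise was called with IL-7 (log2 0.75 ± 0.14, adjusted p = 0.0189) and IL-15 (log2 0.64 ± 0.14, adjusted p = 0.0231), and the fall in BBA with IL-7 (log2 -0.90 ± 0.14, adjusted p = 0.00542). BBA was lower than WT in the IL-7 culture (log2 -1.91 ± 0.20, adjusted p = 0.0144) and in the IL-15 culture (log2 -1.28 ± 0.09, adjusted p = 0.000202), and lower than AAB with IL-15 (log2 -0.98 ± 0.09, adjusted p = 0.00381). The IL-15 calls against WT and against AAB held without any 1 library.

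The responses of Il2rb in Tcm cells differed from WT in BBA with IL-7 (log2 -1.65 ± 0.20, adjusted p = 0.00419) and IL-15 (log2 -1.03 ± 0.20, adjusted p = 0.012) and in AAB with IL-7 (log2 -1.11 ± 0.20, adjusted p = 0.0358). Without any 1 library the first held. The second was lost without WT NC replicate 2, WT IL-15 replicate 1, BBA NC replicate 1 or BBA IL-15 replicate 2 (log2 -1.003 to -0.91, adjusted p 0.0598 to 0.0602). The third was lost in 13 of 18 refits (log2 -1.17 to -0.92, adjusted p 0.0514 to 0.167) and kept without either WT or BBA IL-7 library or AAB IL-7 replicate 2. With a term for sex the first was still called (log2 -1.48, adjusted p = 0.00299) and the third was not (log2 -0.94, adjusted p = 0.0504), and the WT rise with IL-7 was log2 0.40 and not called (adjusted p = 0.285), while the fall in BBA with IL-7 was (log2 -1.09, adjusted p = 0.0029). The WT rise with IL-7 was lost without WT NC replicate 2 (log2 0.68, adjusted p 0.201), that with IL-15 without any of its 4 libraries (log2 0.55 to 0.68, adjusted p 0.0781 to 0.176), and the BBA call with IL-7 without either BBA library (log2 -2.07 to -1.76, adjusted p 0.149 to 0.196) or with a term for sex (log2 -1.74, adjusted p = 0.0855). The summed level of Cd8a and Cd8b1 moved with Il2rb in Tcm cells. With IL-7 it was 2825 to 2836 CPM in WT, 2271 to 2282 in AAB and 1784 to 2029 in BBA, and with IL-15 2669.6 to 3182 CPM in WT, 2885 to 3153 in AAB and 1884 to 2063 in BBA. That of 4 B cell genes (Cd79a, Cd79b, Ms4a1 and Pax5) was at 16.2 to 40.8 CPM in WT, 37.8 to 68.2 in AAB and 110.04 to 200.1 in BBA with IL-7, of which BBA did not overlap with WT or AAB. With IL-15 the ranges of these genes overlapped, at 87.1 to 157, 62.8 to 178 and 154 to 314 CPM. Memory and effector state genes (Cd44, Cxcr3, Eomes, Tbx21, Gzmb and Klrg1) summed to 761 to 1336 CPM in WT, 477 to 627 in AAB and 535 to 539.6 in BBA with IL-7 and to 718 to 773, 832 to 835 and 505 to 596 with IL-15. The part of these markers in the Il2rb results was not tested.

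In Tem cells with IL-15 Il2rb had 1107 and 627 CPM in WT and 601 and 417 in BBA, a difference that was not called in edgeR (log2 -0.71 ± 0.19, adjusted p = 0.137) but was with the replicate number as a block (log2 -0.70, adjusted p = 0.0113), by DESeq2 and in 1 fit over all CD8+ libraries. In Tnv cells it had 233 and 201 CPM in WT and 139.9 and 175 in BBA with IL-7 (log2 -0.44, adjusted p = 0.16). Naive CD4+ cells held little Il2rb, at 25.2, 21.9 and 22.1 CPM in WT without cytokine and 38.2, 39.5 and 43.6 with IL-7 (log2 0.81 ± 0.21, adjusted p = 0.00972). With IL-7 it had 36.1, 21.2 and 22.5 CPM in BBA, below every WT library, a difference that was not called (log2 -0.58, adjusted p = 0.111) except with the replicate block (log2 -0.63, adjusted p = 0.0392).

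Il7r, the specific chain of the IL-7 receptor that naive and memory T cells need to survive, moved the other way and was higher in BBA than in WT cells in 3 conditions, Tnv cells without cytokine, Tcm cells with IL-15 and naive CD4+ cells with IL-7. In Tnv cells without cytokine it had 607 and 734 CPM in WT, 848 and 872 in AAB and 1007 and 1051 in BBA. The 3 genotypes did not overlap, and BBA exceeded WT (log2 0.63 ± 0.09, adjusted p = 0.0141), a call lost without WT replicate 1 or BBA replicate 2 (log2 0.51 to 0.62, adjusted p 0.0583 to 0.0887). The sum of the 6 memory and effector state genes moved with genotype in these libraries, at 112 to 136 CPM in WT, 151 to 178 in AAB and 202 to 209.5 in BBA, and with IL-7 it was at 33.7 to 40.3, 81.9 to 248 and 174 to 293. In naive CD4+ cells with IL-7 it was at 6.61 to 7.80 CPM in WT, 7.99 to 11.6 in AAB and 35.8 to 51.7 in BBA. The part of memory cells in the differences between naive cells was not tested. With no filter on low counts the same difference was log2 0.57, under the 1.5-fold limit, and in 1 fit over all CD8+ libraries its adjusted p was 0.334. With IL-7 BBA Tnv cells had 906 and 1091 CPM against 627 and 542 in WT (log2 0.79, adjusted p = 0.102), which was called with the replicate number as a block (log2 0.78, adjusted p = 0.0485).

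Il7r fell with IL-15 in WT Tcm cells, from 736 and 738 to 338 and 299 CPM (log2 -1.26 ± 0.22, adjusted p = 0.00858). BBA Tcm cells with IL-15 had 718 and 599 CPM and AAB cells 566 and 367, all above WT. BBA differed from WT (log2 1.33 ± 0.21, adjusted p = 0.00291), and this held without any 1 library. The WT fall was lost without WT NC replicate 2 or either WT IL-15 library (log2 -1.32 to -1.21, adjusted p 0.0654 to 0.0837), and the response difference of BBA did not pass the test (log2 1.15, adjusted p = 0.0543). With the replicate block, AAB also differed from WT (log2 0.60, adjusted p = 0.0153) and BBA from AAB (log2 0.72, adjusted p = 0.00651). With IL-7, levels of Il7r in Tcm cells were 749.8 and 449.9 in WT, 654 and 871 in AAB and 945 and 1039 in BBA, and the BBA difference was not called (log2 0.97, adjusted p = 0.0731). In Tcm cells without cytokine and in Tem cells no genotype difference of Il7r was called.

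With IL-7, Il7r in naive CD4+ cells had 862, 614 and 683 CPM in WT, 979 and 994 in AAB and 1469, 1169.7 and 1270.2 in BBA. Every BBA and AAB library was above every WT library, and BBA was called (log2 0.87 ± 0.14, adjusted p = 0.00469) in every refit without 1 library. AAB was called only with the replicate block (log2 0.59, adjusted p = 0.00563). The response of Il7r to IL-7 was not called in WT Tnv (log2 -0.12, adjusted p = 0.779) or naive CD4+ cells (log2 -0.08, adjusted p = 0.791).

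Il4ra, the specific chain of the IL-4 receptor, rose with IL-7 in WT Tnv and naive CD4+ cells, and no rise was called in AAB or BBA cells in any of their 6 cultures. In Tnv cells it had 301 and 344 CPM in WT without cytokine and 580.3 and 545 with IL-7 (log2 0.88 ± 0.14, adjusted p = 0.000503). AAB cells had 402 and 394 without and 329 and 302 with IL-7, and BBA cells 361 and 385 without and 275 and 269.6 with IL-7. The WT rise, of every library over every library, was absent in both other genotypes, where all libraries with IL-7 were below those without. Libraries of Tnv cells with IL-7 were male and those without cytokine female in all 3 genotypes. The response differed from WT in BBA (log2 -1.25 ± 0.19, adjusted p = 0.00564) and in AAB (log2 -1.15 ± 0.19, adjusted p = 0.0247). With IL-7 Il4ra was lower than WT in BBA (log2 -1.02 ± 0.10, adjusted p = 0.0097) and in AAB (log2 -0.86 ± 0.10, adjusted p = 0.0375).

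Naive CD4+ cells gave the same directions for the WT rise and for the differences from WT with IL-7. All AAB CD4+ libraries lay within 481 to 527 CPM, and those without cytokine lay between those with IL-7, unlike in AAB Tnv cells. Il4ra had 495, 484 and 464 CPM in WT without cytokine and 824, 965 and 869 with IL-7 (log2 0.88 ± 0.09, adjusted p = 1.38e-05). With IL-7 AAB had 527 and 481 CPM and BBA 368, 486 and 439, all below WT (log2 -0.81 ± 0.12, adjusted p = 0.0203 for AAB and log2 -1.02 ± 0.11, adjusted p = 0.000551 for BBA). The response difference was called for BBA (log2 -1.35 ± 0.14, adjusted p = 0.000193) and not for AAB (log2 -0.89, adjusted p = 0.0899). The WT rises in both cell types, both response differences of BBA and the CD4+ BBA call held without any 1 library. The BBA and AAB calls in Tnv cells were lost without any of the WT or BBA IL-7 libraries (log2 -1.08 to -0.98, adjusted p 0.0774 to 0.153 for BBA and log2 -0.91 to -0.81, adjusted p 0.0991 to 0.476 for AAB). The AAB response difference in Tnv cells was lost without any WT NC, WT IL-7 or AAB NC library (log2 -1.23 to -1.07, adjusted p 0.056 to 0.167), and the CD4+ AAB call without any WT or AAB IL-7 library (log2 -0.88 to -0.74, adjusted p 0.0501 to 0.159).

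With IL-15 Il4ra did not rise in WT Tnv cells, at 333 and 352 CPM, and was 136 and 227 in BBA. The second WT value is from the library with reads of Cd4 and Foxp3. The BBA response differed (log2 -0.88 ± 0.19, adjusted p = 0.0374), but only 3 of 18 refits without 1 library kept that call, those without either AAB IL-7 library or without BBA IL-15 replicate 2 (others log2 -0.96 to -0.64, adjusted p 0.0507 to 0.149). In Tcm cells with IL-15 Il4ra had 534 and 513 CPM in WT, 381 and 372 in AAB and 254 and 296 in BBA, and BBA was lower than WT (log2 -0.65 ± 0.11, adjusted p = 0.00352). Without BBA replicate 1 that difference was log2 -0.52, under the 1.5-fold limit. The BBA response difference (log2 -0.79 ± 0.19, adjusted p = 0.0325) was lost in 11 of 18 refits (log2 -0.92 to -0.58, adjusted p 0.0507 to 0.141) and kept without any of the 6 IL-7 libraries or WT NC replicate 2. In Tem cells with IL-15 it had 324 and 244 in WT, 205 and 176 in AAB and 115 and 138 in BBA, a BBA difference at the limit in edgeR (log2 -1.09, adjusted p = 0.0507) that was called with the replicate block (log2 -1.11, adjusted p = 0.00167), by DESeq2, with no filter, with the edgeR 4 form and in 1 fit over all CD8+ libraries.

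**Figure D3:**
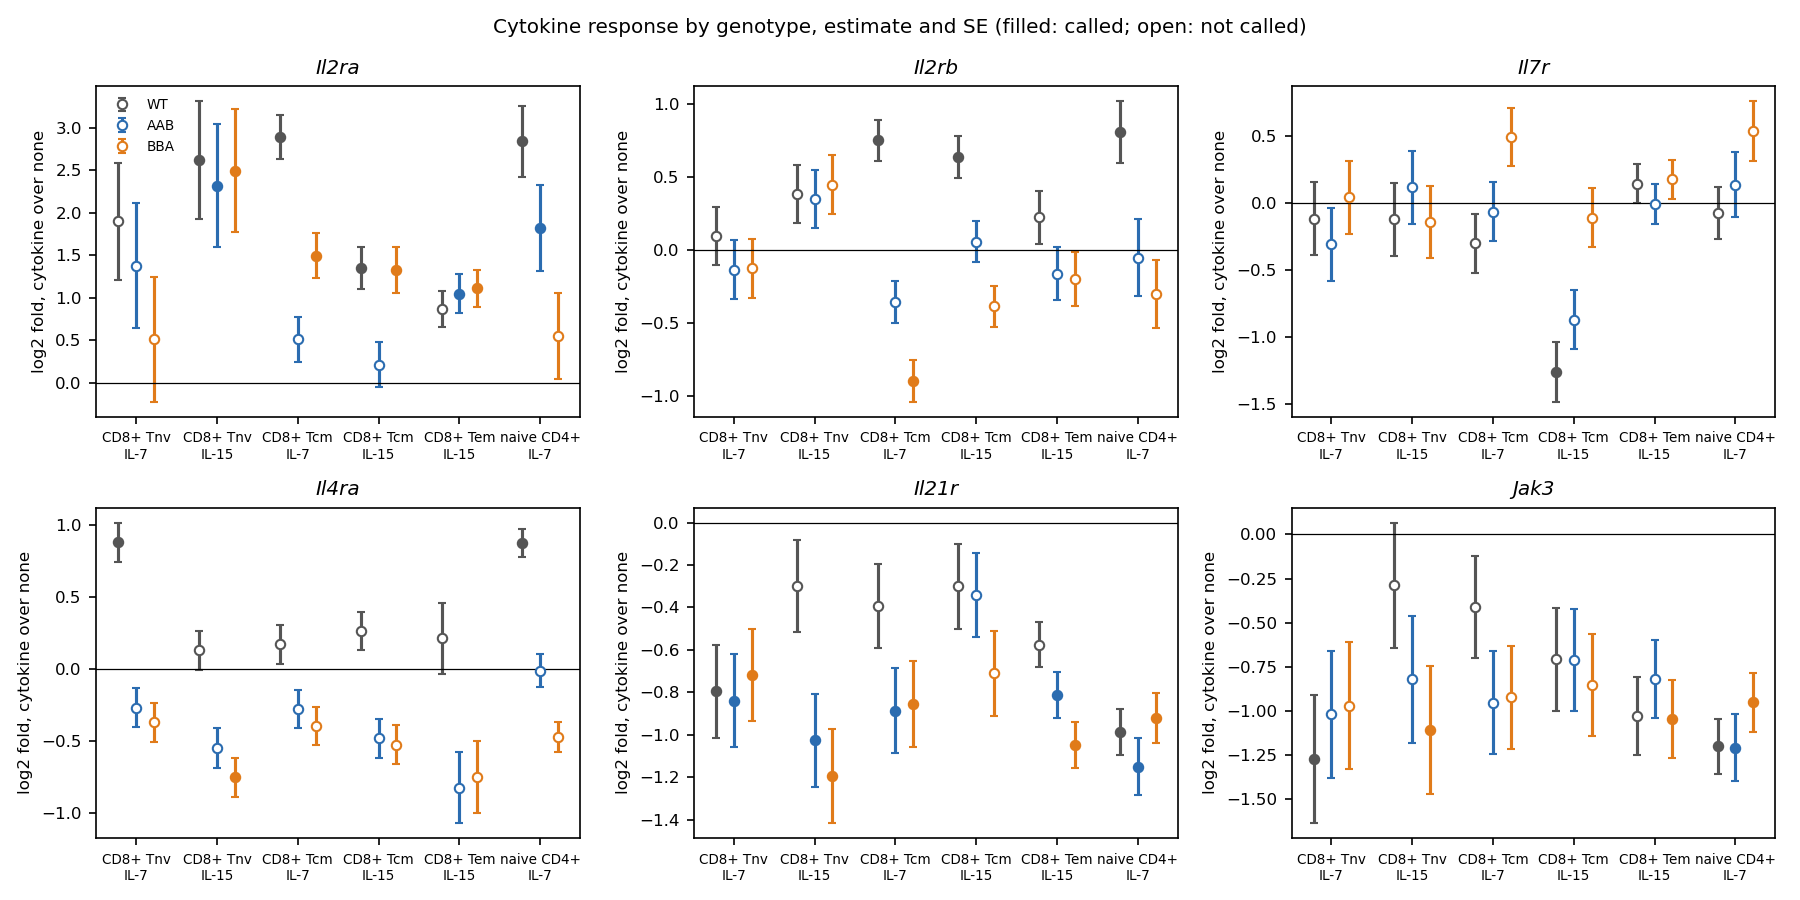
Fitted log2 difference of cytokine cultures from cells without cytokine for Il2ra, Il2rb, Il7r, Il4ra, Il21r and Jak3 in WT, AAB and BBA cells, with standard errors. Filled points are called. Il4ra stands at log2 0.88 in WT Tnv and naive CD4+ cells with IL-7 and below 0 in AAB and BBA cells in every culture, whereas the Il21r and Jak3 points lie below 0 in every culture and genotype.

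Il21r, the specific chain of the IL-21 receptor, fell with cytokine in every genotype, and none of its genotype differences was called. In Tnv cells it had 238 and 217 CPM in WT without cytokine and 124 and 124 with IL-7 (log2 -0.79 ± 0.22, adjusted p = 0.0164). It fell as well with IL-7 in AAB (log2 -0.84 ± 0.22, adjusted p = 0.0176) and BBA Tnv cells (log2 -0.72 ± 0.22, adjusted p = 0.0417). In WT naive CD4+ cells it went from 254, 256 and 273 to 131, 127 and 138 CPM (log2 -0.99 ± 0.11, adjusted p = 1.58e-05), a call that held without any 1 library. The call in WT Tnv cells was lost without WT NC replicate 1 or either WT IL-7 library (log2 -0.80 to -0.71, adjusted p 0.0814 to 0.0941). In Tnv cells with IL-15 the libraries had 119.6 and 238 CPM in WT, 102 and 103 in AAB and 75.9 and 89.5 in BBA, with the library that held Cd4 and Foxp3 again the highest (log2 -0.83, adjusted p = 0.143 for BBA).

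Il2rg, the common gamma chain itself, was called in 1 comparison, the IL-15 culture of BBA Tem cells, where it went from 588 and 538 to 334 and 258 CPM (log2 -0.85 ± 0.12, adjusted p = 0.00443). This call held without any 1 library. Its largest difference from WT was also in Tem cells with IL-15, at log2 -0.45 in BBA against WT (adjusted p = 0.178). Over all 48 CD8+ libraries it ranged from 258 to 767 CPM. WT naive CD4+ cells had less of it with IL-7 than without (log2 -0.54, adjusted p = 0.000304), by less than 1.5-fold. Il15ra had 2.46 to 26.4 CPM in CD8+ cells and no called genotype difference, and in naive CD4+ cells with IL-7 it was too low to be tested between genotypes. In naive CD4+ cells with IL-7 every library was below those without cytokine in each genotype, and the fall was called in BBA (log2 -1.26 ± 0.40, adjusted p = 0.0287), a call lost without BBA NC replicate 2 or BBA IL-7 replicates 1 or 3 (log2 -1.16 to -0.97, adjusted p 0.0815 to 0.228). WT and AAB cells had log2 -1.04 (adjusted p = 0.0505) and -1.32 (adjusted p = 0.0563), each called by DESeq2 and with the block (log2 -1.10, adjusted p = 0.0056 and log2 -1.18, adjusted p = 0.02), and the responses of the genotypes did not differ by the test (log2 -0.23 for BBA and -0.28 for AAB). In WT Tnv cells with IL-7 Il15ra likewise missed the limit (log2 -1.54, adjusted p = 0.0624) and was called by DESeq2 and with the block (log2 -1.66, adjusted p = 0.0149). In both of these fits some same-numbered libraries deviated apart, with correlations as low as -0.25 in Tnv and -0.09 in CD4+ cells. Il9r had 0 to 21.8 CPM in CD8+ cells and at most 22 reads in a CD4+ library. It passed the filter on low counts in 2 of the 8 CD8+ genotype fits, those of Tcm and Tem cells without cytokine, and was not called in either. Tem cells with IL-15 had 6.25 and 5.39 CPM of Il9r against 21.8 and 18.6 without cytokine in WT (log2 -1.64, adjusted p = 0.0839, called with the replicate block, log2 -1.63, adjusted p = 0.0293).

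Jak3, the kinase of the gamma chain, fell with IL-7 in naive CD4+ cells and was higher there in BBA than in WT mice. In naive CD4+ cells it had 218, 209.9 and 179 CPM in WT without cytokine and 73.6, 97.4 and 92.6 with IL-7 (log2 -1.20 ± 0.16, adjusted p = 6.92e-05). BBA cells had 304 and 429 without and 171, 209 and 185 with IL-7, above every WT library in the same condition (log2 0.86 ± 0.15, adjusted p = 0.0382 without and log2 1.11 ± 0.14, adjusted p = 0.00166 with IL-7). BBA and WT naive CD4+ cells thus differed in 1 of the 10 genes without cytokine, Jak3, where 1.13% of all genes were called, and in 4 with IL-7, Il2ra, Il4ra, Il7r and Jak3, where 5.5% were. For AAB the counts were 0 without cytokine (0.355% of all genes, with Jak3 at an unadjusted p under 0.05 and no call by DESeq2) and 1 with IL-7, Il4ra (0.611%). The Jak3 call without cytokine was lost without any WT library or BBA replicate 2 (log2 0.59 to 0.92, adjusted p 0.0824 to 0.253), whereas the calls with IL-7 held without any 1 library.

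In CD8+ Tnv cells Jak3 had 338 and 354 CPM in WT without cytokine and 126 and 145 with IL-7 (log2 -1.27 ± 0.36, adjusted p = 0.0195), a call lost without any of these 4 libraries (log2 -1.37 to -1.18, adjusted p 0.0665 to 0.12). With IL-7 BBA had 253 and 262 CPM (log2 0.95, adjusted p = 0.0913), called with the replicate block (log2 0.94, adjusted p = 0.0449). In Tcm cells without cytokine BBA had 435 and 665 CPM against 308 and 406 in WT (log2 0.71, adjusted p = 0.509), again called with the block (log2 0.70, adjusted p = 0.00479). In each of the 8 CD8+ conditions except Tnv with IL-15 and Tcm with IL-7, every BBA library was above every WT library for Jak3, and of these differences DESeq2 called those in Tnv cells without cytokine and with IL-7. In edgeR the Jak3 difference with IL-7 was called with no filter on low counts (log2 0.93), and the others were not called in edgeR without the block. Such separation of 2 libraries from 2 was common. Of the 10 genes, 3 to 10 did not overlap between BBA and WT in a condition, in either direction. The share of all genes that separated was not counted. Jak3 overlaps with Insl3 and the use of strand in counting is not given in the sources used here, so its reads may include those of Insl3.

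Jak1, the kinase of the partner chains, ranged from 971 to 1909 CPM over the CD8+ libraries, the narrowest range in fold of the 10 genes. It was called once, in Tcm cells with IL-15, where it had 1271 and 1198 CPM in WT, 1423 and 1496 in AAB and 1573 and 1515 in BBA (log2 0.60 ± 0.09, adjusted p = 0.00211 for BBA). This call held without any 1 library but lay near the 1.5-fold limit, and other filters on low counts put it below that limit, at log2 0.38 with filterByExpr and 0.35 with no filter, as did 1 fit over all CD8+ libraries, at 0.55. Jak1 overlaps with Raver2, with the same limit on strand.

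**Figure D4:**
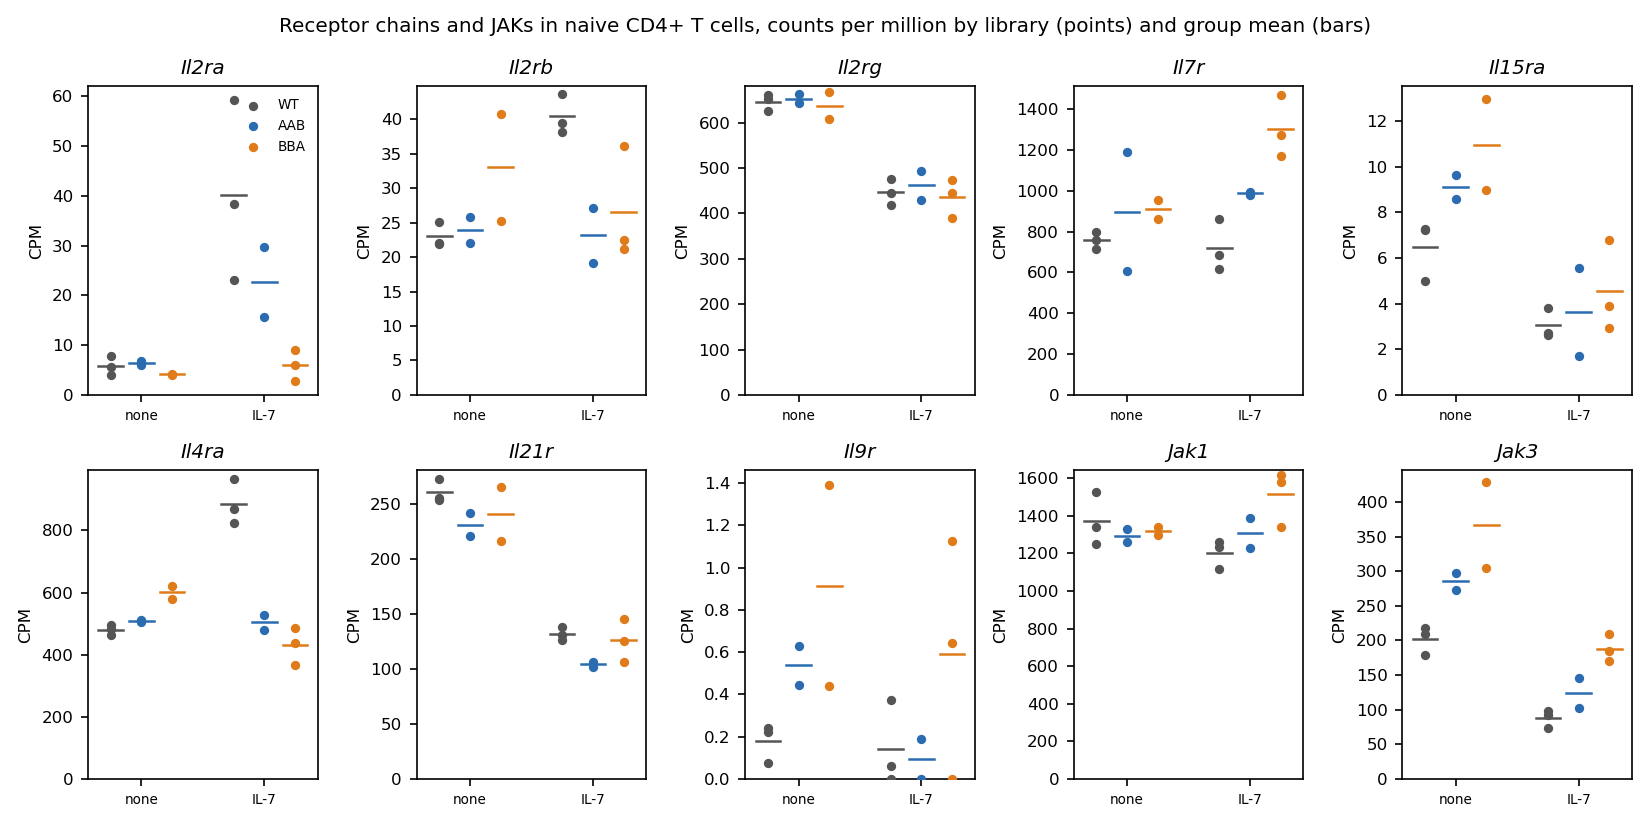
Level of each of the 10 genes in CPM, on axes that start at 0, in the naive CD4+ libraries. Each point is a library and each bar a group mean, arranged by cytokine and colored by genotype. With IL-7 the 3 WT libraries are above all BBA libraries for Il2ra and Il4ra and below them for Il7r and Jak3.

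Within AAB and BBA cells the cytokine cultures lowered Il21r and Jak3 and raised Il2ra. In AAB cells 9 calls were made, 3 higher and 6 lower with cytokine. They were 1 gene in Tnv with IL-7 (all genes 13%), 2 in Tnv with IL-15 (14.7%), 1 in Tcm with IL-7 (4.27%), 0 in Tcm with IL-15 (0.895%), 2 in Tem with IL-15 (2%) and 3 in naive CD4+ cells with IL-7 (13.1%). In AAB Tcm cells with IL-15 4 genes had an unadjusted p under 0.05 and DESeq2 called Il7r. In BBA cells 16 calls were made, 4 higher and 12 lower: 1 in Tnv with IL-7 (10.1%), 4 in Tnv with IL-15 (19%), 3 in Tcm with IL-7 (5.86%), 1 in Tcm with IL-15 (5.13%), 4 in Tem with IL-15 (7.46%) and 3 in naive CD4+ cells with IL-7 (13.6%). In WT cells 9 of 14 calls were higher. Il2ra was the only gene to rise in AAB or BBA cells, and Il21r and Jak3 made up 14 of the 18 falls. The fall of Il2rb in BBA Tcm cells with IL-7 and those of Il21r with IL-15 in AAB and BBA Tnv and in BBA Tem cells held without any 1 library, as did those of Il21r and Jak3 with IL-7 in AAB and BBA CD4+ cells. Il2ra in AAB Tem cells was lost in 10 of 12 refits, without any WT or AAB library or either BBA IL-15 library (log2 0.98 to 1.14, adjusted p 0.0561 to 0.27), and Il21r in BBA Tnv cells with IL-7 in 12 of 18 (log2 -0.82 to -0.61, adjusted p 0.0535 to 0.183), without any library without cytokine, any WT or BBA IL-7 library or either AAB IL-15 library. Without some or any 1 of the 4 libraries compared, calls were also lost for Il21r in AAB Tnv with IL-7 (log2 -0.86 to -0.77, adjusted p 0.0742 to 0.0986), AAB Tcm (log2 -0.92 to -0.86, adjusted p 0.108 to 0.139), AAB Tem (log2 -0.82 to -0.79, adjusted p 0.0532 to 0.0731) and BBA Tcm cells (log2 -0.95 to -0.77, adjusted p 0.0864 to 0.114). Il2ra was lost in the same way in Tnv cells with IL-15 of AAB (log2 2.02 to 2.57, adjusted p 0.0657 to 0.187) and BBA (log2 2.07 to 2.69, adjusted p 0.0934 to 0.113), in BBA Tcm cells with IL-7 (log2 1.28, adjusted p 0.102) and IL-15 (log2 1.12 to 1.45, adjusted p 0.0655 to 0.149), in BBA Tem cells (log2 0.93 to 0.98, adjusted p 0.0791 to 0.0856) and in AAB CD4+ cells (log2 1.28 to 1.92, adjusted p 0.0867 to 0.142). In BBA Tnv cells with IL-15, Il4ra was under the 1.5-fold limit without IL-15 replicate 1 (log2 -0.51, adjusted p 0.00641), and Jak3 was lost there (log2 -1.31 to -0.76, adjusted p 0.0517 to 0.242) and in Tem cells (log2 -1.07 to -0.87, adjusted p 0.0628 to 0.109). In Tem cells, where numbered replicates deviated together, the block added Il2ra (log2 0.87, adjusted p = 0.0166) and Jak3 (log2 -1.02, adjusted p = 0.00714) in WT, Il4ra (log2 -0.82, adjusted p = 0.0262), Il9r (log2 -1.65, adjusted p = 0.0369) and Jak3 (log2 -0.83, adjusted p = 0.0162) in AAB and Il4ra (log2 -0.74, adjusted p = 0.0182) in BBA.

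IL-15 and IL-7 were compared directly in WT cells, with 1 gene called in Tnv cells (9.61% of all genes) and 1 in Tcm cells (1.23%). Il4ra was lower with IL-15 than with IL-7 in Tnv cells (log2 -0.75 ± 0.14, adjusted p = 0.00578), and Il2ra was lower with IL-15 than with IL-7 in Tcm cells (log2 -1.54 ± 0.24, adjusted p = 0.0153). The first was lost without WT IL-7 replicate 1 (log2 -0.70, adjusted p 0.0548) and the second without either WT IL-15 library (log2 -1.59 to -1.49, adjusted p 0.139 to 0.224). Whether the effect of the BBA genotype depended on the cytokine was tested in the same fits, with no gene called in Tnv (2.12%) or Tcm cells (0.248%), where 5 tests had an unadjusted p under 0.05 and DESeq2 called Il2ra in Tcm cells. The WT libraries with IL-7 were male and those with IL-15 female in both states, and with a term for sex the Il2ra difference in Tcm cells was not called (log2 -1.60, adjusted p = 0.172). The WT Tnv libraries with IL-15 include the one with reads of Cd4 and Foxp3.

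CA-STAT5A was expressed in AAB cells to ask which genes active STAT5A can move. The libraries labeled as CD8+ cells held 1.73 to 4.67 CPM of Cd8a and Cd8b1 together, where the other CD8+ libraries held at least 1243. Of the 3 genes Cd3d, Cd3e and Cd3g, the T cell list without Trac, they held 19.5 to 45.0 CPM with CA-STAT5A and 104 to 210 CPM with empty vector. The 4 natural killer cell genes (Ncr1, Klrb1c, Klra8 and Klre1) summed to 1808 to 2171 CPM, of which Ncr1 had 1143 to 1442, and 5 of 6 myeloid genes (Lyz2, Csf1r, Cd14, Itgam, Adgre1 and Fcer1g) to 1419 to 1621 with CA-STAT5A and 651 to 775 with empty vector. Klra8 was at 0 in the empty vector libraries. The 4 B cell genes summed to 8.14 to 22.6 CPM with CA-STAT5A and 71.02 to 123 with empty vector, and the 3 CD4 lineage genes (Cd4, Zbtb7b and Cd40lg) to 138 to 174 in all 4 libraries. The results are therefore given for the transduced libraries and not for a cell type, and the part of these marker differences in them was not tested. Stat5a had 60.7 and 60.9 CPM with CA-STAT5A and 8.35 and 3.17 with empty vector.

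Of the 10 genes 5 were called, all lower with CA-STAT5A, where 6.63% of all genes were called in either direction. Il7r had 49.2 and 58.4 CPM with CA-STAT5A and 252 and 428 with empty vector (log2 -2.69 ± 0.26, adjusted p = 0.00479). Il2ra had 19.1 and 16.6 against 48.3 and 59.2 (log2 -1.61 ± 0.17, adjusted p = 0.00587) and Il4ra 59.1 and 46.7 against 117 and 178 (log2 -1.51 ± 0.22, adjusted p = 0.0132). These 3 calls held without any 1 library. Il21r had 12.1 and 13.2 against 27.4 and 57.3 CPM (log2 -1.77 ± 0.34, adjusted p = 0.0296) and Il9r 0.185 and 0.0922 against 3.37 and 5.61 (log2 -4.88 ± 0.77, adjusted p = 0.0168), and both calls were lost without either CA-STAT5A library (log2 -1.85 to -1.69, adjusted p 0.0703 to 0.152 for Il21r and log2 -5.46 to -4.57, adjusted p 0.0548 to 0.0904 for Il9r). Per kilobase Il2rb was the most abundant of the 10 genes in these libraries, with means of 609 and 711 CPM per kb. It had 2697 and 2522 CPM with CA-STAT5A against 2952 and 3144 (log2 -0.25, adjusted p = 0.333). Il2rg, Il15ra, Jak1 and Jak3 had log2 differences of 0.05, -0.47, -0.11 and -0.46 and were not called. By the calls, Il2ra was thus lower than WT in BBA Tnv and CD4+ cells with IL-7 and in AAB and BBA Tcm cells with IL-7 or IL-15. In Tnv and Tem cells with IL-15 no genotype difference of Il2ra was called. It was also lower where active STAT5A was added. The transduced libraries were of different cells, cultured with IL-2 under both vectors.

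**Figure D5:**
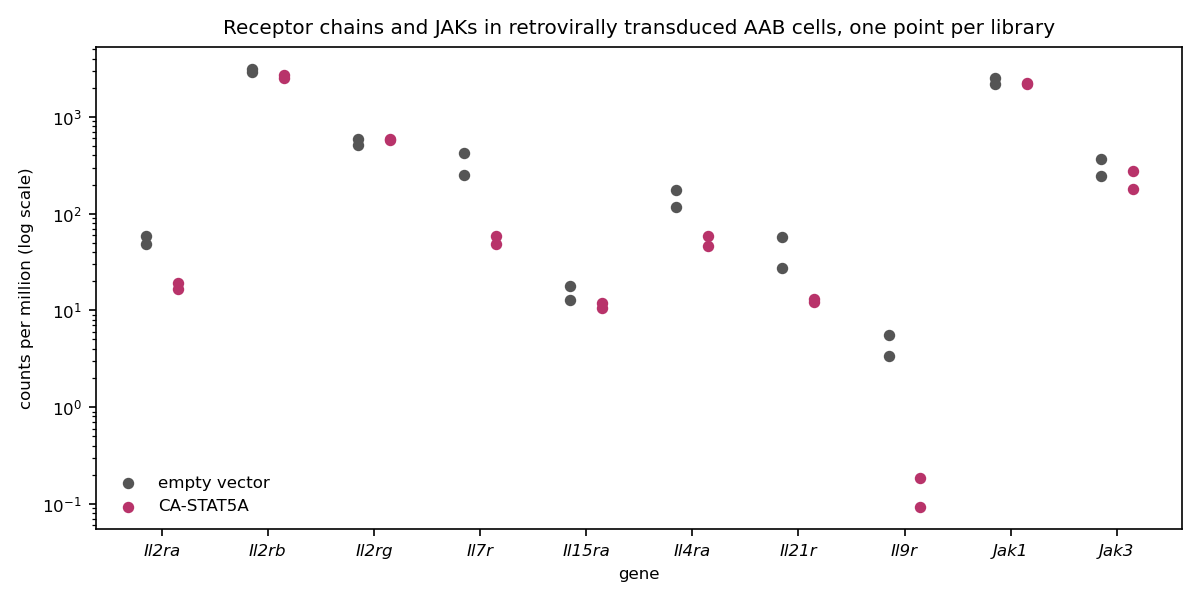
Level of each of the 10 genes in CPM on a log axis in the 4 transduced libraries. Gray points are the libraries with empty vector and magenta points those with CA-STAT5A. The points of Il7r, Il2ra, Il4ra, Il21r and Il9r are lower in both CA-STAT5A libraries, whereas those of Il2rg lie between 519 and 597 CPM in all 4.

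The other genes of the pathway were counted from 4 lists. Of 10 inhibitors of cytokine signaling (Cish, Socs1, Socs2, Socs3, Ptpn1, Ptpn2, Ptpn6, Ptpn11, Sh2b3 and Cbl), 0 tests were higher and 12 lower in BBA against WT CD8+ cells, in 77 tests over 8 conditions. Of all genes tested, 0.206% to 23.5% were called in these conditions. Cish, a STAT5 target that feeds back on the receptor, fell the most with IL-7 in Tnv cells, from a mean of 67.3 to 3.39 CPM (log2 -4.29 ± 0.18, adjusted p = 0.000595). With IL-15 in Tcm cells it fell from 62.5 to 4.86 CPM (log2 -3.42 ± 0.20, adjusted p = 0.000121), and Socs2, another feedback inhibitor, from 17.1 to 2.60 CPM (log2 -2.42 ± 0.24, adjusted p = 0.000616). The median log2 difference of the inhibitors tested was -0.30 in Tcm cells with IL-15, where 3 fell. Of all 9944 genes tested there 23.5% were called, with 1175 genes lower. In AAB against WT CD8+ cells 0 of 77 tests were higher and 3 lower (all genes, 0.0196% to 4.29%). In naive CD4+ cells the inhibitors gave 1 higher and 3 lower calls in 19 tests for BBA (all genes, 1.13% and 5.5%) and none for AAB (0.355% and 0.611%). In WT cells the cytokine cultures gave 15 higher and 5 lower calls among inhibitors in 60 tests, in AAB 10 and 5 and in BBA 7 and 6. Of all genes, 1.69% to 18.7% were called in these cultures of WT, 0.895% to 14.7% in AAB and 5.13% to 19% in BBA. The response of BBA differed from that of WT in 6 of these tests, each lower (all genes, 0.00954% to 4.49%), and that of AAB in 1 (0% to 0.314%). Cish rose with IL-7 in WT Tnv cells from a mean of 14.0 to 67.3 CPM (log2 2.34 ± 0.29, adjusted p = 0.000116), and its response was smaller in BBA (log2 -2.24 ± 0.45, adjusted p = 0.0228).

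Of 11 kinases, STATs and adaptors (Jak2, Tyk2, Stat3, Stat4, Stat6, Shc1, Grb2, Gab2, Irs2, Pik3r1 and Pik3cd), 1 of 80 tests was higher and 2 lower in BBA CD8+ cells and none in AAB. For these genotype comparisons the shares of all genes called are those given above for the inhibitors. The higher call was Jak2 in Tcm cells with IL-15, named after its values were seen, and both lower calls were Pik3cd, a catalytic subunit of PI3 kinase, in Tnv cells without cytokine (log2 -0.68 ± 0.077, adjusted p = 0.0059) and in Tem cells with IL-15. Naive CD4+ cells gave for this list 1 lower call in 20 tests for each of BBA and AAB, and none higher. It was Stat4 with IL-7 in both, with a mean of 122 CPM in AAB and 194 in WT (log2 -0.66 ± 0.078, adjusted p = 0.00805). Of 10 regulators of receptor genes (Foxo1, Foxp1, Gfi1, Gabpa, Ets1, Runx1, Runx3, Eomes, Tbx21 and Klf2), 5 of 78 tests were higher and 1 lower in BBA CD8+ cells, and none in AAB. Eomes, a memory cell factor that can drive Il2rb, was higher in BBA Tnv cells with IL-7 (log2 3.12 ± 0.54, adjusted p = 0.0373) and Tbx21, a related factor, was lower in BBA Tcm cells with IL-15 (log2 -1.51 ± 0.17, adjusted p = 0.000931). In naive CD4+ cells the regulators gave 2 higher calls in 18 tests for BBA, both Eomes, and none for AAB. Of the 9 ligands and partner chains (Il2, Il4, Il7, Il9, Il15, Il21, Tslp, Crlf2 and Il13ra1), 1 or 2 passed the filter on low counts in a condition and none was called in any of these genotype comparisons. With CA-STAT5A the lists gave 0 higher and 2 lower calls among 10 inhibitors, Socs3 and Sh2b3, 1 higher among 11 kinases, STATs and adaptors, Tyk2, and none among regulators or ligands. Of all genes 6.63% were called there.

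Likeness of pattern was measured as the Pearson correlation of mean log2 CPM over the 24 CD8+ groups, among 10316 genes, as a description of groups that share cell states and cultures. The gene most like Il2ra was Socs2 (0.84), followed by Emp1 and Tbcb. For Il2rb it was Ppm1j (0.96), for Il15ra Rab19 (0.96) and then Il12rb1, a chain of the IL-12 and IL-23 receptors (0.95). For Il4ra it was Ptcd2 (0.93), for Il21r Ptprc (0.95), for Il2rg Exoc5 (0.93), for Jak3 Slc45a4 (0.92), for Jak1 Acsf2 (0.82) and for Il7r Gm14446 (0.77). Il9r did not pass the filter in every condition and was left out.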

How the data were processed

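The RNA-seq counts were deposited as 3 tables of raw counts per gene, for CD8+, naive CD4+ and transduced cells. The authors aligned poly(A)+ reads with TopHat2 and counted them with HTSeq; the submitters' processing notes give genome build mm9 while the study's methods give mm10. Groups came from the labels, and 2 CD4+ libraries with conflicting labels stayed out of all comparisons. For transduced cells, 67.0% to 68.4% of reads stood in rows that name no gene and were left out. The 10 genes and the pathway lists were chosen with earlier results of these data known. A gene of the kinase list and a gene of the B cell list are not reported here, and the counts and sums of those lists leave them out.

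Genes were kept by a Jaccard filter (100 thresholds from 1 to 200 normalized counts in any library), normalized by TMM and tested with edgeR 4.0.16 (quasi-likelihood, legacy form) over all genes, with 1 fit per condition for genotypes and 1 per cell type or state for responses. SE is the log2 change divided by the square root of F. Alternatives were DESeq2 1.42.0 and its size factors, other filters, the edgeR 4 form, a replicate block, pooled fits, WT libraries alone, a sex term in the genotype fit of Tcm cells with IL-7 and leaving out each library, and a sex term in the responses of Tcm cells was added after the data were seen. The named genes were the 10, Stat5a, Stat5b, the 3 most changed called genes of the lists per comparison and the 3 most alike genes. Levels per kb used merged exons of GENCODE M21 on GRCm38, matched by symbol. On simulated counts with known changes, 82.4% of changes of log2 1 and 100% of log2 2 were recovered for BBA against WT Tcm cells with IL-15, over 9944 genes. The same shares were 88.9% and 100% for BBA against WT naive CD4+ cells with IL-7. They were 69.4% and 89.9% for IL-7 against no cytokine in WT Tnv cells and 75% and 96% for CA-STAT5A against empty vector. Same-numbered libraries deviated together (every correlation of deviations over 0.1) in 9 of 16 fits, with correlations of 0.10 to 0.79 there and as low as -0.25 over all 16. This was found in the data and is not stated in the labels. With 2 libraries in a group their deviations mirror each other, so unrelated numbers could also pass and pairing was not established. Depth of 5926139 to 34118295 reads per library limits the lowest genes, Il9r, Il2ra and Il15ra, to few reads.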

Additional observations from a re-analysis of the deposited data

Results flagged for a closer look

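In 9 tests the response to cytokine of cells lacking Stat5 alleles differed from that of WT cells, by a test of the difference itself. The values are log2 differences of responses relative to WT, each called in edgeR, and the 9 tests share the WT libraries of their cell state. For Il4ra, of the IL-4 receptor, they were -1.25 in BBA and -1.15 in AAB Tnv cells with IL-7, -0.88 in BBA Tnv and -0.79 in BBA Tcm cells with IL-15, and -1.35 in BBA naive CD4+ cells with IL-7. For Il2rb, of the IL-2 and IL-15 receptors, they were -1.65 in BBA and -1.11 in AAB Tcm cells with IL-7 and -1.03 in BBA Tcm cells with IL-15. For Il2ra the difference was -2.38 in AAB Tcm cells with IL-7. The BBA values with IL-7, for Il4ra in Tnv and CD4+ cells and for Il2rb in Tcm cells, were called without any 1 library, and each of the others was lost in some refits. For the Il4ra value in Tnv cells with IL-15, the WT libraries include the one with reads of Cd4 and Foxp3. In CD8+ cells the cultures with IL-7 differed in sex from the cells without cytokine, with all Tnv libraries with IL-7 male, so that sex cannot be told apart from IL-7 in Tnv cells. In Tcm cells a term for sex left the IL-7 values of Il2rb in BBA (-1.48) and of Il2ra in AAB (-2.41) called and not that of Il2rb in AAB (-0.94, adjusted p = 0.0504).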

How the results depend on the processing

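No called change reversed under any setting, and DESeq2, its size factors and the replicate block ended none of the 86 calls. Counts of calls that moved by over 1.5 times were as follows. With no filter, calls came to 18 for BBA and 9 for AAB against WT CD8+ cells, 6 between BBA and AAB, 22, 18 and 25 for the cytokine responses of WT, AAB and BBA, 5 for IL-15 against IL-7, 2 for the BBA effect with IL-15 minus IL-7 and 9 for cell states without cytokine. DESeq2 gave 18, 9 and 3 for the same genotype comparisons, 2 for AAB against WT CD4+ cells, 22 and 16 for the responses of WT and AAB, 10 and 5 for the response differences of BBA and AAB, 1 for the BBA effect with IL-15 minus IL-7 and 8 for cell states. With the replicate block calls came to 18 for BBA against WT and 2 between BBA and AAB in CD8+ cells. They came to 2 for AAB against WT CD4+ cells, 14 for AAB responses and 10 for cell states. The block gained 22 calls in fits where same-numbered libraries deviated together and 12 in others, and lost 0. No block was possible for the transduced cells because 1 control has no replicate number. BBA against AAB gave 2 calls with filterByExpr and 2 in 1 fit over all CD8+ libraries.

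Without 1 library, calls came to 8 to 12 for BBA and 2 to 5 for AAB against WT CD8+ cells, 1 to 2 between BBA and AAB, 4 to 6 for BBA and 0 to 1 for AAB CD4+ cells, 3 to 5 for CA-STAT5A, 10 to 17, 7 to 12 and 13 to 20 for responses of WT, AAB and BBA, 4 to 9 and 1 to 4 for response differences of BBA and AAB, 1 to 5 for IL-15 against IL-7, 0 to 1 for the BBA effect with IL-15 minus IL-7, and 2 to 5 and 0 to 9 for cell states without cytokine and with IL-15. Of 86 calls 32 held in every refit and 54 were lost in at least 1. With other settings 26 of 564 values lost a call. A sex term in the responses of Tcm cells, chosen after seeing the data, left 1 call for IL-15 against IL-7 and ended those of Il2ra there, of Il2rb in WT with IL-7 and in the response of AAB to it, and of Il21r in AAB (adjusted p = 0.0546) and BBA with IL-7 (0.0563). Fitted on WT libraries alone, 6 responses were lost: Il21r (log2 -0.81, adjusted p = 0.0734) and Il2ra (2.65, 0.113) in Tnv cells with IL-7 and IL-15, and in Tcm cells Il2rb with IL-7 (0.74, 0.206) and Il2ra (1.33, 0.165), Il2rb (0.62, 0.307) and Il7r (-1.28, 0.17) with IL-15. Il2ra in AAB Tem cells was lost with filterByExpr, no filter and the edgeR 4 form (adjusted p 0.0784 to 0.147), Il2ra in AAB Tnv cells with IL-15 with the edgeR 4 form (0.0577), and with filterByExpr the AAB response difference of Il2rb (0.071) and Il4ra in Tem over Tcm cells (0.0807). The cause was not tested. With 2 libraries in most groups, a gene under the limit was not shown to be unchanged, and the fewest reads were behind Il9r, Il2ra and Il15ra.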

Other observations

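The labels of 2 naive CD4+ libraries disagree on whether IL-7 was present, so they entered no comparison. They had 3.36 and 4.002 CPM of Il2ra, 24.7 and 26.1 of Il2rb and 581 and 549 of Il4ra. Il7r was at 1004 and 709 CPM, Il21r at 227 and 266 and Jak3 at 264 and 420. The gamma chain gene Il2rg was at 571 and 632 CPM, Il15ra at 6.94 and 6.05 and Jak1 at 1385 and 1443.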
